A study of Xenopus tropicalis with 9 samples.

Results

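The 10 genes described here encode parts of the meiotic chromosome axis, the synaptonemal complex and the recombination machinery: hormad1, rec8, sycp1, sycp2, sycp3, spo11, dmc1, tex11, msh4 and mlh3. They were taken by symbol, and all 10 were found among the 30330 named genes of the deposited tables. Their messenger RNA was measured by sequencing in 9 libraries of western clawed frog (Xenopus tropicalis) tissue. The titles of both head libraries and of the ovary library say adult, and the other titles give no stage. Head and heart were each sampled in both sexes. The lung, intestine, GI tract and ovary libraries are female and the testes library is male. No strain, genotype or treatment is given in the labels, and ovary and testes have 1 library each, so neither has a replicate check.

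In meiotic prophase each pair of sister chromatids is organised as loops along a protein axis. REC8 is the meiotic subunit of the cohesin ring, HORMAD1 and SYCP2 and SYCP3 coat the axis, and SYCP1 forms the transverse filaments that zip the axes of homologous chromosomes together. SPO11 cuts the DNA, DMC1 carries the cut end into the homologue, and MSH4, TEX11 and MLH3 act on the joint molecules that become crossovers. In the adult testis cells pass through these stages continuously, whereas most of the RNA of an adult frog ovary lies in large growing oocytes that are arrested after recombination is complete.

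Levels are given as TPM, the share of a library's transcripts after division by transcript length, scaled to 1000000, and, where reads are few, as estimated counts. The libraries held 27625145 to 34692548 counts assigned to named genes. The upper limit that a count of 0 allows, 3 counts, was 0.0865 to 0.109 CPM, where CPM is the count scaled to a library of 1000000. That limit is called the floor below. Intervals on counts cover counting error only. Testes and both hearts carried their markers, while the oocyte markers were divided between ovary and other female libraries. The egg gene btg4 stood at 18969 TPM in ovary and the oocyte transcription factor gene figla at 623, both highest there, but 10 of the 13 oocyte markers found were higher in female heart than in ovary and 9 were higher in lung. In testes the germ cell RNA-binding gene dazl stood at 856 TPM, the germ cell helicase gene ddx4 at 664, the sperm tail gene odf3 at 224, meig1, needed for sperm formation in mouse, at 188, the steroid enzyme gene cyp17a1 at 491 and the inhibin gene inha at 291. The light chain genes myl3 and myl7 stood at 28757 and 28174 TPM in male heart and at 24802 and 19795 in female heart. The 13 oocyte markers had a median of 49.1 TPM in ovary, 113 in female heart, 103 in lung, 7.22 in female head and 4.19 in GI tract, and at most 0.13 in intestine and the male head and heart. Their sum was 20485 TPM in ovary, 4008 in female heart and 3111 in lung, an order that rested on btg4, since without it the sums were 1516, 2954 and 2151. Whether the counting used strand is not stated in the labels, so reads of overlapping genes cannot be told apart, nor can reads that sycp2 may share with its relative sycp2l.

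The 10 genes were mostly testes genes. By TPM, 9 of the 10 were highest in testes, where 23.1% of the 22062 genes with at least 1 TPM in some library were highest. The exception was tex11, which was highest in male heart. At least 4-fold above every other library in testes were 8 of the 10, against 7.69% of those 22062 genes. Leaving out tex11 and mlh3, the other 8 summed to 1350 TPM in testes, 38.0 in ovary and 0.47 to 6.31 in the 7 body libraries, of which male heart held 0.68. In bulk tissue, fewer cells of a type and less RNA per cell cannot be told apart.

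**Figure D1:**
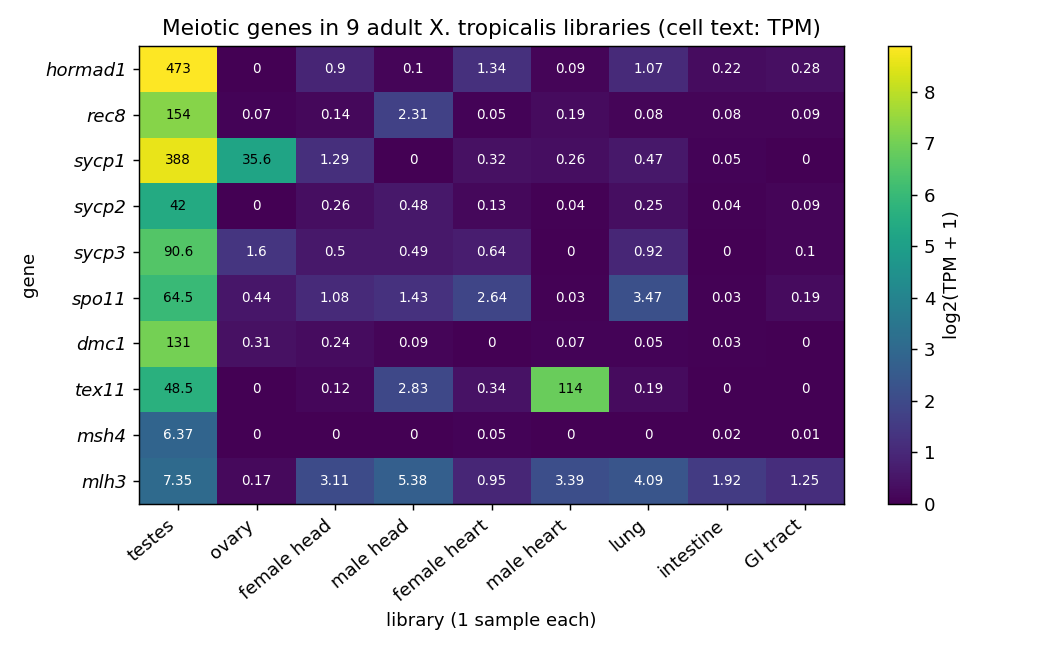
Level of each of the 10 genes (rows) in each of the 9 libraries (columns, 1 sample each), coloured by log2(TPM + 1) with the TPM written in the cell. The testes column is the highest for 9 genes, tex11 is highest in male heart at 114 TPM, and sycp1 is the one gene above 2 TPM in ovary.

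The axis gene hormad1 and the cohesin gene rec8 were at or near 0 in ovary. Fewer genes reached 1 TPM in ovary (9629) than in testes (17791). By TPM, 64.7% of the 22062 genes were at least 4-fold higher in testes than in ovary. Hormad1, whose protein marks unsynapsed axes, stood at 473 TPM in testes (24956 counts) and at 0 counts in ovary. That is at least 7531-fold higher in testes by CPM when ovary is set to the floor of 3 counts in that library. In the body it was highest in female heart (1.34 TPM), lung (1.07) and female head (0.90), then GI tract (0.28) and intestine (0.22), and lowest in male head (0.10) and male heart (0.09). Testes therefore held 99.1% of all hormad1 counts in the 9 libraries.

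Rec8, the meiotic cohesin subunit, stood at 154 TPM in testes (6848 counts) and 0.07 in ovary (4 counts). The ratio of CPM was 1550, with an exact 95% interval of 605 to 5690. The body libraries held 5 to 24 counts of rec8 each, at 0.05 to 0.19 TPM, apart from male head. That library was listed at 2.31 TPM for 17 counts, while female head was listed at 0.14 TPM for 14 counts, so the TPM ratio of 16.5 between the heads stands beside a CPM ratio of 1.28 (0.592 to 2.80). By counts the heads overlapped, and the TPM difference was not present in the counts.

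Sycp2 and sycp3, the lateral element genes, were both testes genes. Sycp2 stood at 42.0 TPM in testes (4331 counts) and 0 counts in ovary, at least 1307-fold higher in testes by CPM. In the body it lay between 0.04 and 0.48 TPM. Sycp3 stood at 90.6 TPM in testes (2085 counts) and 1.60 in ovary (22 counts), a CPM ratio of 85.8 (56.5 to 137). Among body libraries sycp3 ran from 0 counts in male heart and intestine to 0.92 TPM in lung (19 counts). Whether lung lay below ovary depended on the scale, with a lung to ovary CPM ratio of 0.794 (0.407 to 1.54) and a TMM ratio of 0.337 (0.173 to 0.653).

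Sycp1, the transverse filament gene, was the member that ovary also held. It stood at 388 TPM in testes and 35.6 in ovary, with the body libraries at 0 to 1.29 TPM, the last in female head (13 counts). The size of the difference between the gonads rested on the scale. The TPM ratio was 10.9, the counts of 2842 and 1467 gave a CPM ratio of 1.75 (1.65 to 1.87), and edgeR's TMM scaling, which allows for libraries filled by few genes, turned the ratio to 0.608. Relative to CPM, TMM moved every testes to ovary ratio by -1.53 on the log2 scale and DESeq2's size factors by -1.74, and sycp1 was the one member of the 10 whose direction changed.

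TPM divides a count by transcript length, and for sycp1 that length differed between the gonads. Counts per TPM, divided by the median of that quantity over genes, follow the mean length of the transcripts to which reads were assigned. For sycp1 this relative length was 4.27 times greater in ovary than in testes. Of 7586 genes with at least 100 counts in both gonads, 59 (0.778%) lay as far from the median, and 5.25% lay at least 2-fold away. The sycp1 reads of ovary and testes were thus assigned to transcripts of different length. Which transcripts these are was not tested, because the tables give 1 value per gene.

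The break formation and strand exchange members, spo11 and dmc1, were also highest in testes. Spo11, the break-making transesterase gene, stood at 64.5 TPM in testes (1793 counts) and 0.44 in ovary (16 counts), a CPM ratio of 101 (62.3 to 178). It also had reads in much of the body. Lung held 3.47 TPM, female heart 2.64, male head 1.43 and female head 1.08, while GI tract held 0.19 and intestine and male heart 0.03 each (1 count each). Lung exceeded ovary by a CPM ratio of 4.89 (2.84 to 8.93) and a TMM ratio of 2.07 (1.21 to 3.79), but with DESeq2's size factors the ratio was 1.34 (0.782 to 2.46), within counting error.

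Dmc1, the meiotic recombinase gene, stood at 131 TPM in testes (3196 counts) and 0.31 in ovary (10 counts), a CPM ratio of 289 (157 to 604). In the body it reached 0.24 TPM in female head (6 counts) and 0 counts in female heart and GI tract, and 6 of the 9 libraries lay at or under 3 counts. Dmc1 was therefore not detectable above the floor in most of the body at this depth.

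Crossover genes split into a testes gene, a widely present gene and tex11. Msh4, part of the clamp that holds joint molecules, stood at 6.37 TPM in testes (413 counts) and 0 counts in ovary. That is at least 125-fold higher in testes by CPM, and 7 of the 9 libraries lay at or under 3 counts. Mlh3, a mismatch repair family gene that acts in crossover resolution, was the least restricted member. It stood at 7.35 TPM in testes, 5.38 in male head, 4.09 in lung, 3.39 in male heart, 3.11 in female head, 1.92 in intestine, 1.25 in GI tract, 0.95 in female heart and 0.17 in ovary (22 counts).

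The top of the mlh3 order was close. Testes exceeded male head by a CPM ratio of 1.40 (1.25 to 1.57), which TMM scaling lowered to 1.19 (1.06 to 1.33) and DESeq2's size factors to 1.11 (0.987 to 1.24), and with the latter male heart became the highest library. The bottom was not close, since testes exceeded ovary by a CPM ratio of 30.2 (19.8 to 48.6) and lung exceeded ovary by 15.1 (9.81 to 24.4). With TMM these ratios were 10.5 (6.88 to 16.9) and 6.41 (4.17 to 10.4). Ovary lay below all 7 body libraries for mlh3 by TPM, the lowest of which was female heart.

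Testes were compared with ovary to ask how far the gonads differ in these genes. All 10 members had a higher TPM in testes, as did 79.6% of the 22062 genes with at least 1 TPM in some library. In edgeR's quasi-likelihood test, which takes its spread from the head and heart pairs and assumes that a lone gonad library varies like them, 0 of the 10 members passed a Benjamini-Hochberg adjusted p of 0.05, and 0% of the 23090 genes tested passed. At an unadjusted p under 0.05 there were 6954 genes, and no adjusted p was below 0.118. The median log2 fold change of the members was 7.85, beside 2.08 over all genes tested. Sycp2 had a log2 fold change of 14.5 (SE 2.24, edgeR adjusted p = 0.118), rec8 9.05 (SE 1.84, adjusted p = 0.118) and sycp1 -0.72 (SE 1.97, adjusted p = 0.817). Fitted folds of genes at 0 in ovary depend on edgeR's prior count.

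That test rested on the heart pair, which joins a female and a male library. With each heart as its own group, so that the spread came from the heads alone, 8 of 10 members passed as higher in testes, where 31% of genes did so. These were dmc1, hormad1, mlh3, msh4, rec8, spo11, sycp2 and sycp3. Without male heart 8 passed (31.3% of genes higher) and without female heart 8 (34.1%), while 0 passed without either head. DESeq2 called 5 members higher, and 4138 of the 17787 genes with an adjusted p (13.6% of all 30330 genes). Limma called 7 on log2(TPM + 1) (20.8%) and 5 on log2(TPM + 0.1) (25.1%). Lung is a lone library that adds no spread to the edgeR fit, so leaving it out could hardly change this test of the gonads. Without lung, which also held oocyte transcripts, edgeR called 0, and without lung and female heart it called 8 (36.9%).

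**Figure D2:**
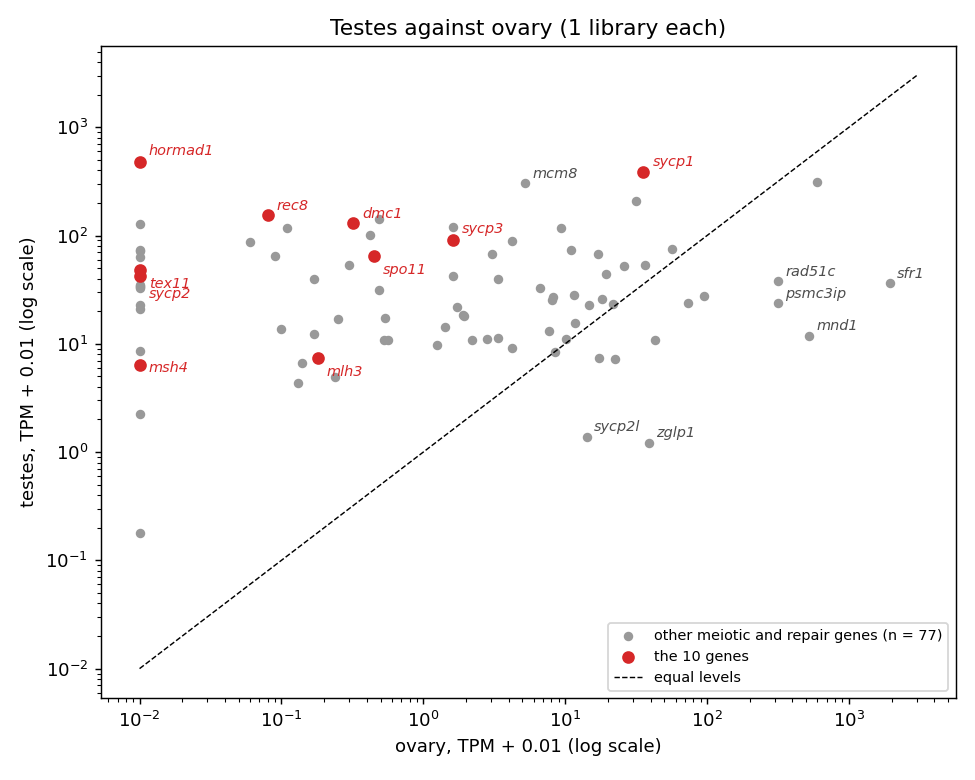
TPM + 0.01 in testes (vertical) against ovary (horizontal), both on log scales, for the 10 genes (red) and 77 other meiotic and repair genes (grey), 1 library per gonad. The 10 genes lie above the line of equal levels, with hormad1, sycp2, tex11 and msh4 at 0 in ovary, while sfr1, mnd1, psmc3ip and rad51c lie far below it.

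Testes were compared with the mean of head, heart, lung, intestine and GI tract. The edgeR test called 0 members and 0% of 23090 genes (3514 at an unadjusted p under 0.05, lowest adjusted p 0.0913). Sycp2 (log2 fold change 7.61, SE 0.71), rec8 (8.41, SE 0.84) and dmc1 (11.16, SE 1.12) all had that lowest edgeR adjusted p of 0.0913. Mlh3 had a log2 fold change of 0.75 (SE 0.93, edgeR adjusted p = 0.794).

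Every alternative test that made calls in this comparison called members. DESeq2 called 8 of 10 higher in testes, where it called 820 of the 18871 genes with an adjusted p (2.7% of all 30330 genes). Limma called 7 on log2(TPM + 1), where it called 9.9%, and 3 on log2(TPM + 0.1), where it called 5.72%. With the hearts as separate groups 8 passed (10.3% of genes). Without female head 9 passed (3.35%), without male head 9 (2.89%), without male heart 8 (8.27%) and without female heart 8 (13.6%). Without lung 0 passed (3203 genes at an unadjusted p under 0.05), and without lung and female heart 8 passed (15.5%). Mlh3 passed in none of these, and tex11 passed only without female head or without male head.

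The wider meiotic pathway was read from 9 lists by role, of which 77 genes other than the 10 were found. By TPM 64 of the 77 were higher in testes than in ovary and 13 higher in ovary, whereas 51 of 77 had a positive fold change with TMM. These shares were near those of all genes: by TPM 83.1% of the 77 and 79.6% of the 22062 genes were higher in testes, and the median log2 fold change was 1.49 for the 77 and 2.08 for all genes tested. At least 4-fold above every other library in testes were 28 of the 77 (36.4%, against 7.69% of genes). The edgeR test called 0 of the 77 between the gonads and 0 against the body, as it did for all genes.

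Partners of the axis and of synapsis were mixed. By TPM, 3 of 5 axis and cohesin genes and 4 of 5 synaptonemal complex genes were highest in testes, where 23.1% of the 22062 genes were highest. The meiotic cohesin gene stag3 stood at 143 TPM in testes and 0.48 in ovary, and the general cohesin gene smc3 at 42.1 and 1.60, with lung higher at 50.2. Trip13, whose ATPase removes HORMAD proteins from synapsed axes, stood at 74.96 and 56.6, a direction that TMM turned (log2 fold change -1.66, SE 1.60, edgeR adjusted p = 0.478). The central element genes syce1 (129 against 0) and syce2 (53.97 against 0.29) were high in testes and at or near 0 in ovary, and c14orf39, another central element gene, stood at 32.8 and 6.66. Of the 5 telomere attachment genes all were highest in testes by TPM, among them ccdc155 (72.1 against 0), sun1 (66.9 against 3.04) and terb1 (34.2 against 0), which link chromosome ends to the nuclear envelope.

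Of the 4 break genes found, 2 were highest in testes by TPM, where 23.1% of the 22062 genes were highest. In testes the break genes were led by ankrd31 at 13.6 TPM, mei4 at 8.30 and mei1 at 6.60, against 0.09, 8.46 and 0.13 in ovary. Among genes of end processing and signalling, the checkpoint clamp gene hus1 stood at 310 TPM in testes and 594 in ovary, rad1 of the same clamp at 119 and 1.61, and nbn of the end-binding complex at 210 and 31.4. Crossover genes in testes were led by the helicase gene mcm8 (303 against 5.18 in ovary), prr19, needed for crossovers in mouse (100.2 against 0.41), and the ligase gene rnf212 (32.96 against 0). Genes of meiotic entry and its program included the transcription factor gene rfx2 (117 against 9.39), meioc, which keeps cells in prophase in mouse (87.2 against 0.05), and stra8, needed to enter meiosis in mouse (73.8 against 0). The cohesion protector genes sgo1 and sgo2 stood at 73.7 and 10.8 TPM in testes against 10.98 and 0.52.

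Of the 20 strand exchange genes other than dmc1, 13 were higher in testes than in ovary by TPM (65%, against 79.6% of the 22062 genes). The other 7 were higher in ovary (35%, against 17.6%). In testes they were led by spata22, a partner of MEIOB on single-stranded DNA in mouse (118 TPM against 0.10 in ovary), the motor gene rad54b (88.5 against 4.19) and fignl1, a regulator of recombinase filaments (66.9 against 16.9). At least 4-fold higher by TPM in ovary were 6 of the 77 genes (7.79%), close to the 8.21% of all 22062 genes, and 4 of these were strand exchange genes, named here after their values were seen. They were mnd1 (527 TPM in ovary, 11.8 in testes) and psmc3ip (314 and 23.8), whose products work as a pair with DMC1 in mouse, rad51c, a strand exchange mediator (316 and 38.0), and sfr1, a partner of swi5 (1940 and 36.4). The others were the axis relative sycp2l (14.2 and 1.38) and the germ cell factor gene zglp1 (38.7 and 1.21). Dmc1 itself stood at 0.31 TPM in ovary.

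At low levels in the body, female head and female heart lay above their male counterparts for hormad1. Female head held 49 counts against 5 in male head, a CPM ratio of 9.32 (3.73 to 30.0). Female heart held 80 against 6 in male heart, a ratio of 13.6 (5.99 to 38.2). Lung, from a female, held 50 counts, and GI tract and intestine 19 and 15. The counting intervals of lung and female head overlapped, and those of female heart, lung and female head all lay above both male libraries. Those of GI tract (0.330 to 0.855 CPM) and intestine (0.259 to 0.762) overlapped male head (0.0544 to 0.391) and male heart (0.0655 to 0.388). Overlap of separate intervals does not show equal levels, and no ratio interval was taken for these pairs. The CPM itself was higher in GI tract (0.548) and intestine (0.462) than in male head (0.167) and male heart (0.178).

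The oocyte markers moved with hormad1 in part. The 3 libraries highest in hormad1 outside testes were the 3 with the highest median oocyte marker outside the gonads, as given above. Of the 13 markers, 5 in male head and 2 in male heart were at 0 counts. Ovary had 0 counts of hormad1 beside all 13 markers above 0. Testes held 616 TPM of the markers, of which ddx25 made up 478. By summed TPM the 12 proliferation markers were ordered alike in these libraries, at 10827 in female heart, 6788 in lung and 459 in female head. The male libraries held 123 TPM (head) and 21.9 TPM (heart) of them, ovary 6719 and testes 1709. In female heart ccnb2 and ccnb1 led the sum, at 2840 and 2810 TPM. Single markers, named after their values were seen, went the other way between the heads. Female head held less mki67 (4.21 against 4.44 TPM in male head), top2a (7.7 against 10.03) and cdk1 (18.39 against 26.72). The others were higher in female head, and all 12 had a positive female to male fold change in edgeR over heads and hearts. The part of either list in the low hormad1 level was not tested.

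Spo11 and sycp3 in the body did not follow sex alone. For spo11, female heart held 83 counts against 1 in male heart (CPM ratio 84.7, interval 14.8 to 3387), but the heads held 31 and 38 (female to male CPM ratio 0.776, 0.467 to 1.28), which overlapped. Sycp3 had 17 counts in female heart and 0 in male heart, and 9 and 11 in the female and male heads. In the edgeR test of female against male over heads and hearts, hormad1 had a log2 fold change of 3.33 (SE 1.63, adjusted p = 0.814; limma on log2(TPM + 0.1), which called 1.68% of genes higher in female, gave 0.034), spo11 2.31 (SE 2.02, adjusted p = 0.989) and sycp3 1.79 (SE 2.04, adjusted p = 0.989). Of the other meiotic genes 1 of 59 tested passed, zglp1, which was higher in female (log2 fold change 6.96, SE 1.79, edgeR adjusted p = 0.00897), a share near the 1.55% of all genes tested that were called higher in female.

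**Figure D3:**
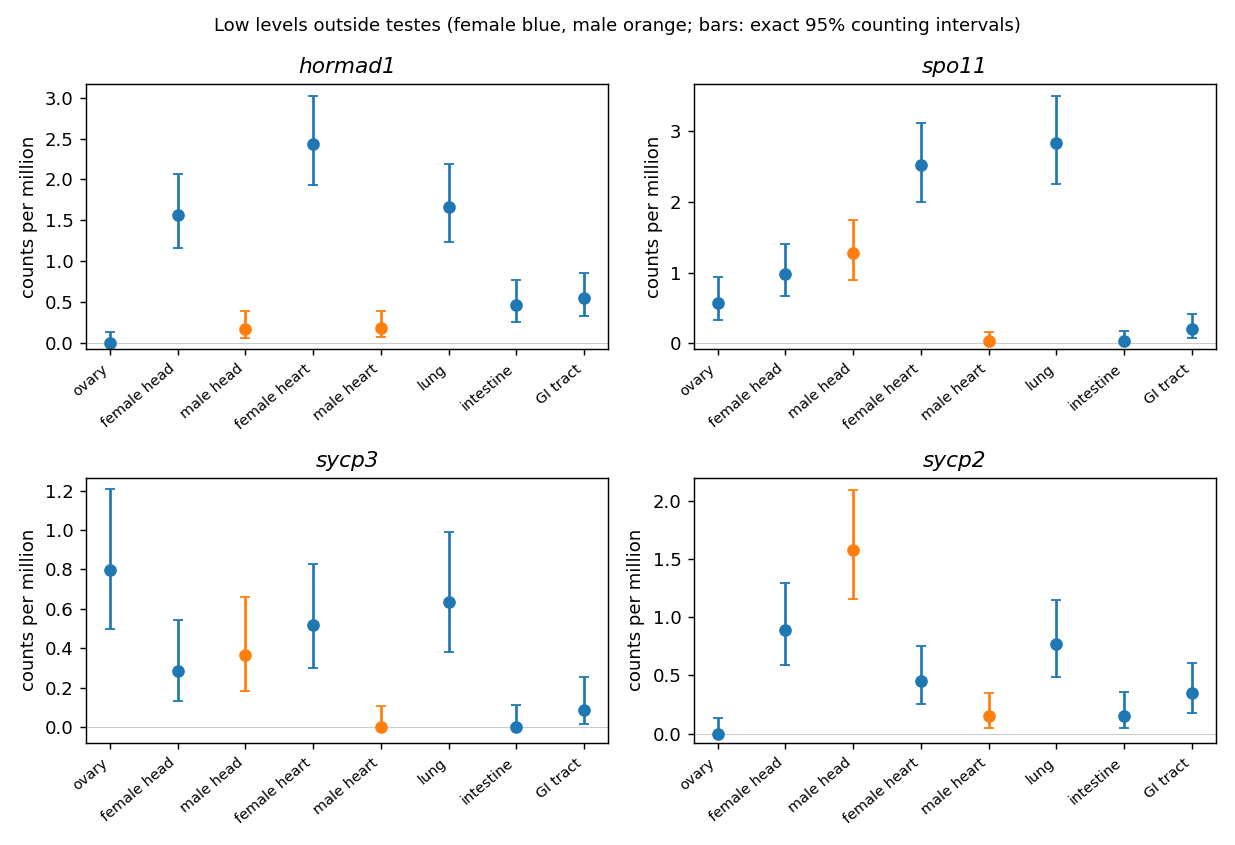
CPM of hormad1, spo11, sycp3 and sycp2 in the 8 libraries other than testes (female blue, male orange); bars are exact 95% counting intervals on 1 library each. Hormad1 lies highest in female heart, lung and female head and near 0 in both male libraries and ovary, while spo11 is also present in male head.

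Tex11 broke the pattern of the other 9. In mouse and human its gene is known from spermatocytes, where the protein takes part in synapsis and crossover formation. Its level was 114 TPM in male heart (6451 counts), 48.5 in testes (1355 counts), 2.83 in male head (127 counts), 0.34 in female heart (18 counts), 0.19 in lung (8 counts) and 0.12 in female head (6 counts). Ovary, intestine and GI tract had 0 counts, so testes were at least 409-fold above ovary by CPM at the floor of 3 counts. The 3 male libraries were thus the highest, and male heart was above testes, by a TPM ratio of 2.34, a CPM ratio of 4.32 (4.07 to 4.58) and a TMM ratio of 8.16.

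The male heart level was set against female heart, a comparison of 1 library a side with no test of its own. Tex11 differed by a CPM ratio of 351 (222 to 593) between the hearts and of 22.3 (9.95 to 61.8) between the heads, male over female in both. Among the 5919 genes with at least 10 TPM in male heart, tex11 had the highest ratio of TPM + 1 in male over female heart, 85.6, and it ranked 792nd by level. In the edgeR test of female against male over the 4 head and heart libraries it was the 1 member of 7 tested that passed (log2 fold change -6.73, SE 1.36, adjusted p = 0.000131), where 0.0726% of 19276 genes were called lower in female. That fit has 1 residual degree of freedom, and limma on log2(TPM + 1) gave tex11 an adjusted p of 0.516 and called 0 genes (1232 at an unadjusted p under 0.05). The adjusted p over the 5 alternatives ran from 4.57e-07 to 0.516.

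Apart from mlh3 (3.39 TPM), the other members were near 0 in male heart. Hormad1 had 6 counts there, rec8 24, sycp1 6, sycp2 5, spo11 1, dmc1 2, and sycp3 and msh4 0, together 0.68 TPM. Of the 77 other meiotic and repair genes, 30 stood at 1 TPM or more in male heart (39%, against 56.6% of the 22062 genes). The 11 germ cell and piRNA markers summed to 4.30 TPM in male heart and 2160 in testes, with dazl at 0.35 against 856 and ddx4 at 1.74 against 664. The 6 sperm and spermatid markers found summed to 5.18 TPM in male heart against 687 in testes. The 11 heart muscle markers summed to 105088 TPM in male heart and 66076 in female heart, with none at 0 in either. By sum, the germ cell and sperm marker lists were far lower in male heart, where tex11 was highest, than in testes. The part of germ cells in the tex11 level was not tested.

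Markers of the gonadal soma were mixed in male heart. The 13 found summed to 217 TPM there, 39.4 in female heart and 1201 in testes. Of these, named after their values were seen, inha stood at 164 TPM in male heart, the gonadotropin receptor genes lhcgr and fshr at 29.8 and 11.8, and sox9 at 9.59. Sox9 was higher than that in every other library except ovary (0.23 TPM), with 12.6 in female heart and 156 in female head. Dmrt1 stood at 0.02, star at 0.30, cyp17a1 at 0.03 and amh at 0.39 TPM in male heart, and nr5a1, foxl2 and cyp19a1 were at 0 counts. Lhcgr and fshr were higher there than in testes by TPM (3.34 and 5.86). Their part in the tex11 level was not tested.

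**Figure D4:**
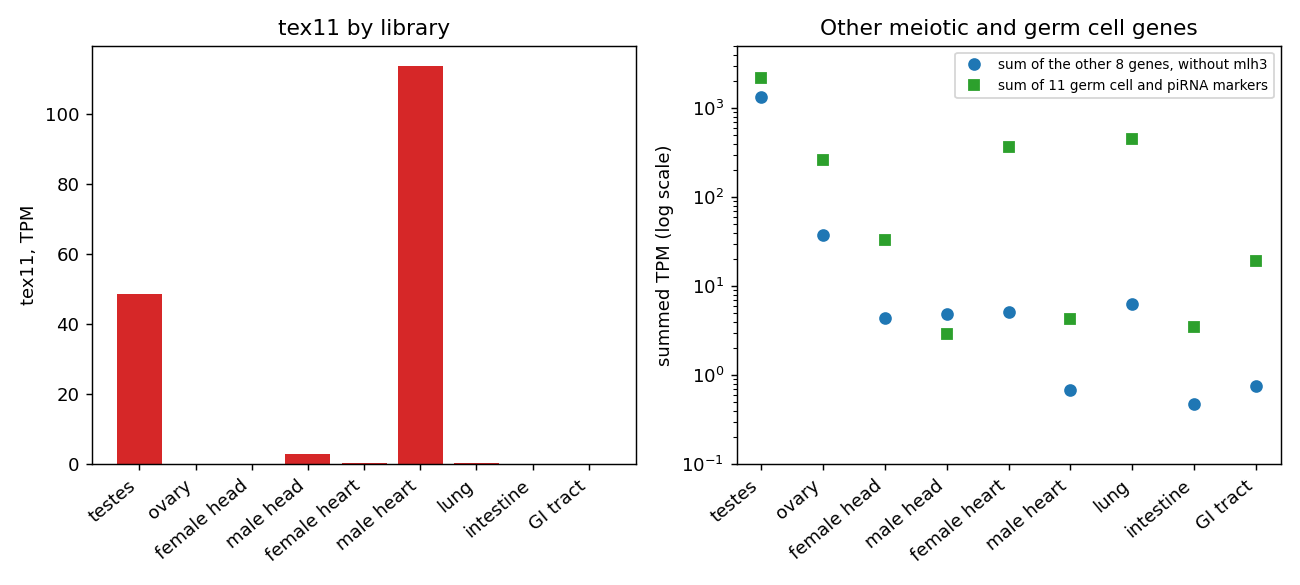
Left, tex11 in TPM by library (bars, 1 sample each). Right, on a log scale, the summed TPM of the 8 other genes without mlh3 (circles) and of 11 germ cell and piRNA markers (squares). Male heart has 114 TPM of tex11 beside 0.68 TPM of the 8 genes and 4.30 TPM of the markers.

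The tex11 reads of testes and male heart also differed in transcript length. Counts per TPM, relative to the median gene, were 1.68 times greater in male heart than in testes, a distance that 191 of 9930 genes (1.923%) reached, and 0.997% lay at least 2-fold away. Male heart and male head did not differ in this measure, with a ratio of 1.0. For mlh3 the same ratio of male heart to testes was 1.0. Male heart and male head therefore shared an assigned tex11 length that testes did not. Female heart (18 counts), lung (8 counts) and female head (6 counts) held too few tex11 reads for this measure. Whether these female libraries had the same tex11 length as male heart was thus not tested, so the length is not shown to be particular to males.

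Genes with the nearest profiles to tex11 were found by Pearson's r of log2(TPM + 1) over the 9 libraries, among 11200 genes with a symbol and at least 10 TPM in some library. They were the dehydrogenase-like gene sccpdh.2 (r = 0.919), asb12.2 (0.913), inha (0.910), fshr (0.907) and the potassium channel gene kcnh2 (0.903). Sccpdh.2 stood at 92.7 TPM in testes, 41.4 in male heart, 22.2 in male head, 0.24 in female head and 0 elsewhere. By a rule chosen after the values were seen, at least 10 TPM in both male heart and testes and under 3 in the other 7 libraries, 3 genes remained: tex11, asb12.2 and the unnamed LOC101732478. The limit of 3 lies just above the tex11 level in male head (2.83 TPM), so its passing was fixed in advance. The number that passed therefore does not gauge how rare the tex11 profile is. The points of each correlation share libraries and depth, and with Spearman's rho 0 of the 5 genes nearest to tex11 were the same.

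The genes nearest to the mean profile of all 10 members were rbm46 (r = 0.993), spdya (0.992), sec14l1 (0.992), spocd1 (0.992) and dmrt1 (0.991). Rbm46 encodes an RNA-binding protein of the germline and spdya a kinase activator at meiotic telomeres in mouse. Dmrt1, the testis transcription factor gene, stood at 116 TPM in testes and at most 0.28 elsewhere, and the other 4 at 22.0 to 71.4 in testes and at most 0.48 elsewhere. Each of these correlations rests on the testes library. With Spearman's rho 0 of these 5 were shared, and with a pseudocount of 0.1 in place of 1 the shared number was 3 for the members and 2 for tex11. With tex11 left out of the mean, the nearest by Pearson's r were spdya (r = 0.997), dmrtb1 (0.996), ankar (0.995), ccnb1ip1 (0.995) and piwil1 (0.994). Of these only spdya was also near the mean of all 10.

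**Figure D5:**
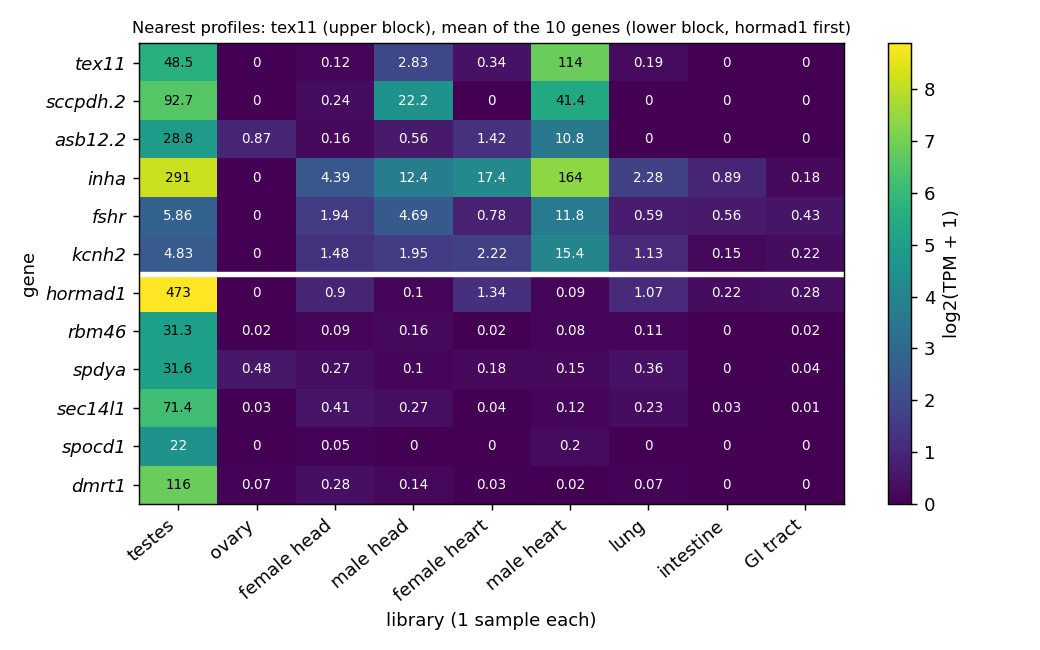
TPM (cell text) and log2(TPM + 1) (colour) in the 9 libraries for tex11 with the 5 genes nearest to it (upper block) and for hormad1 with the 5 genes nearest to the mean of the 10 members (lower block). The upper block is highest in testes and male heart, and the lower block is high in testes and at most 1.34 TPM elsewhere.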

How the data were processed

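Per the labels' protocols, total RNA was prepared with Qiagen kits and libraries with Kapa mRNA reagents. The submitters' processing notes list RSEM 1.3 and, without a version, deepTools, with no role for either. Coordinates are not printed, since aligner, build and annotation are not given in the sources. The authors deposited estimated counts per gene, read here as rounded RSEM expected counts since 1272 entries pair a zero count with a positive TPM, and TPM with 2 decimals that sums to 1000000 per library. The row without a gene name (0.011 to 1.777% of counts) was left out.

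All 10 symbols matched the RefSeq gene table of UCB_Xtro_10.0, used for names only. Genes were tested in R 4.3.3 by edgeR 4.0.16 (quasi-likelihood, TMM scaling) with the default low-count filter, on all 9 libraries with a mean per tissue (testes against ovary, testes against the body) and on the 4 head and heart libraries with tissue and sex terms. All 10 members passed the filter of the first fit and 7 that of the second, which dropped dmc1, msh4 and sycp1. Calls are Benjamini-Hochberg adjusted p-values under 0.05 over all genes tested. DESeq2 gives some genes no adjusted p, and its shares are of all 30330 genes. SE comes from the F statistic. Alternatives were DESeq2 1.42.0, limma 3.58.1 on log2(TPM + 1) or log2(TPM + 0.1), DESeq2 size factors, no filter, separate hearts and leaving out a head or heart, and, added after seeing the data, leaving out lung alone or with female heart. The fits were tested on simulated data in which libraries had a fixed spread and differed only in depth and planted changes. The real pairs join a female and a male library, so that test does not gauge the calls given here. Ratios of CPM carry exact 95% conditional binomial intervals, and CPM exact Poisson intervals. The labels name no animals, so a p-value here reflects only how these samples vary. A female and a male library must come from different animals, so that spread is not technical alone. In the 9-library fits each head or heart pair is 1 female and 1 male library, so their spread includes any difference between the sexes.

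The members, 9 role lists (77 of 97 symbols found) and 6 marker lists (66 of 90 found) were chosen with earlier results of these data known. Named are all members, the 3 role genes per list with the highest TPM in testes, role genes called between the sexes, the 2 leading markers of a list and the 5 genes nearest in profile. Role genes outside this rule are given in counts alone, apart from those said to be chosen after their values were seen, and 1 item is not reported here.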

Additional observations from a re-analysis of the deposited data

Results flagged for a closer look

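Sycp2 differed between the sexes in opposite directions in head and heart, beyond counting error in each pair on the CPM scale. Its female to male CPM ratio was 0.567 (0.342 to 0.924) in head, from 28 and 47 counts, and 3.063 (1.06 to 10.8) in heart, from 15 and 5 counts. Each tissue has 1 library per sex, so the difference between the tissues was not tested. In head the ratio stayed below 1 with TMM (0.587, interval 0.354 to 0.958) and with DESeq2's size factors (0.561, 0.338 to 0.914). In heart the direction held, but the interval then included 1, at 2.78 (0.960 to 9.77) with TMM and 1.92 (0.664 to 6.76) with DESeq2's size factors. The 4 levels lay between 0.149 and 1.57 CPM, beside 142 CPM in testes.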

How the results depend on the processing

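Gene counts in this section take in both directions, whereas members called against ovary or the body were all higher in testes. The shares of genes called higher are given above. For testes against ovary edgeR called 0 members and 0 genes. DESeq2 called 5 members and 6261 genes (20.6% of 30330), limma on log2(TPM + 1) 7 and 5240 (22.7% of 23090), limma on log2(TPM + 0.1) 5 and 6116 (26.5%), and edgeR with separate hearts 8 and 10713 (46.4%). Leaving out 1 head or heart gave 0 to 8 members and 0 to 11227 genes. Against the body these counts were 8 and 907, 7 and 2316, 3 and 1340, and 8 and 2861, and leaving out a library gave 8 to 9 members and 658 to 3962 genes. DESeq2 size factors and no filter gave 0 in both. Without lung both gave 0 as well, and without lung and female heart 8 members and 11699 genes passed against ovary and 8 and 4468 against the body, 2 settings chosen after seeing the data. For female against male, DESeq2 called 556 genes beside 312, and limma on log2(TPM + 1) called 0 genes and 0 members, where tex11 had passed. The cause of these changes was not tested. Sycp1 turned to 3.41 and 3.44 (log2, testes over ovary) in the 2 limma fits on TPM, and sycp2 to -0.06 (female over male) with limma on log2(TPM + 1). Without 1 of the 4 head and heart libraries no residual degree of freedom is left, so that test was not run. A count minimum of 50 in place of 100, chosen after seeing the data, moved the share of genes 2-fold off in length from 5.25% to 5.32%. No paired analysis was possible because the replicate numbers follow listing order and pair no samples. Depth limits statements on dmc1 and msh4 outside testes, where most libraries lie at or under 3 counts.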
